A study of Oryza sativa with 12 samples.

Results

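Low phosphate (Pi) was compared with high Pi in leaf blades of Oshmgb1 mutant rice (Oryza sativa), with 3 mRNA libraries at each Pi level. These 6 libraries of the 12 in the series were taken by their labelled genotype and treatment, and 32846 genes were listed for each. The other 6 libraries came from wild type (WT) leaf blades under the same treatments. All seedlings, mutant and WT alike, were raised for 14 d at high Pi and then kept for 7 d at high or at low Pi, under days of 12 h at 30 °C and nights of 12 h at 22 °C. The design text gives 200 µM for high and for low Pi, so the low concentration is not clear here. The labels name no allele or line for the mutant, no hour of harvest, and no separate plants behind the replicates, so the p-values reflect how far these samples vary, a spread that may be technical. Libraries are named by Pi level and replicate, HP1 to HP3 and LP1 to LP3 in the mutant, with WT- before the names of WT libraries. Values are FPKM, which scales fragments by transcript length and library total, and depth is unknown because no read counts were analysed here.

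Plants take up Pi as a nutrient and build it into nucleic acids, phospholipids and sugar phosphates. When Pi is scarce, plants are known to induce Pi transporters and secreted phosphatases, to exchange phospholipids for galactolipids and sulfolipids, and to adjust iron uptake, since Pi and iron bind each other. HMGB proteins sit on chromatin, where they bend the DNA to which they bind. Low Pi is often accompanied by slower growth of leaves, in which ribosome, cell-cycle and photosynthesis genes can change.

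The label was checked first on LOC_Os06g51220, described as HMG1/2 and taken here, on outside knowledge, as OsHMGB1. It stood at 552, 516 and 548 FPKM at high Pi and 726, 587 and 721 at low Pi in the mutant, below every WT library (1177 to 2147 FPKM). Its low-Pi response in the mutant did not pass the test (0.33, adjusted p = 0.113). Among the 6 mutant libraries, the first principal component (55.5% of the variance) separated low Pi (scores 27.7 to 36.0) from high Pi (−35.6 to −27.0). The second (20.1%) spread the high-Pi libraries, from 27.7 for library 1 to −33.0 for library 3. FPKM summed to 549457 to 568204 per mutant library, and 16093 to 16620 genes reached an FPKM of 1. Within groups the median log2 SD was 0.172 at high Pi and 0.133 at low Pi.

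Of 17630 genes tested, 3307 passed an adjusted p of 0.05 in the mutant (18.8%), with 1847 higher at low Pi (10.5%) and 1460 lower (8.28%). Adjusted p-values are from limma's moderated test with Benjamini-Hochberg adjustment over all genes tested, and folds are on the log2(FPKM + 1) scale, low Pi minus high Pi, which understates the change of weakly expressed genes. The called genes moved mostly by less than 1 unit on the log2 scale: the median log2 fold was 0.67 among those that rose and −0.62 among those that fell. An absolute log2 fold of at least 1 was passed by 652 genes (3.70%), 396 upward and 256 downward. Described only as expressed protein were 461 of the 1847 genes that rose and 276 of the 1460 that fell, beside 9758 of the 32846 genes listed. Their share among the genes tested was not counted. The median of all tested folds was 0.00. Without LP2 the count of called genes was 1984, and without HP2 it was 2016. Beside the counts of gene lists, the shares that rose and fell are given in brackets, to be read against 10.5% and 8.28% over all genes tested; no difference between a list and all genes was tested. Named genes were chosen for a large fold without overlap between Pi levels or for a small p in their list, so a lack of overlap describes their values and is no further result.

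Among the largest rises were genes placed in thiamine metabolism, plastid gene expression and lipid turnover. LOC_Os07g34570, a FAD-dependent oxidoreductase that the files assign to thiamine synthesis, stood at 2.70, 5.61 and 9.88 FPKM at high Pi and 622, 689 and 667 at low Pi (log2 fold 6.68, SE 0.35, adjusted p = 1.12e-06). The gene thiC (LOC_Os03g47610), whose product makes the pyrimidine part of thiamine, stood at 0.61, 1.11 and 1.42 FPKM at high Pi and 32.2, 36.4 and 33.3 at low Pi (4.11, adjusted p = 7.04e-07). In both genes the 3 high-Pi values were spread, with library 3 the highest. The rise did not extend along the pathway: of the 3 thiamin pyrophosphokinases, which convert thiamine to its active form, LOC_Os01g70580 stood at 7.94, 7.56 and 7.85 FPKM at high Pi and 5.80, 6.59 and 6.75 at low Pi (−0.25, adjusted p = 0.129). The response of that gene differed from WT, where it rose (0.80, adjusted p = 0.000915; difference −1.05, SE 0.15, adjusted p = 0.00587). The others, LOC_Os01g25440 (−0.56, adjusted p = 0.0387) and LOC_Os05g30454 (−0.59, adjusted p = 0.0405), fell. The call of LOC_Os01g25440 was lost without HP2 (0.131), HP3 (0.0874), LP1 (0.0865), LP2 (0.0609), LP3 (0.12) or WT-LP1 (0.0509) and with no filter (0.0703), with the replicate block (0.0732). That of LOC_Os05g30454 was lost without HP1 (0.122), HP2 (0.0941), LP1 (0.129), LP2 (0.0984), WT-HP3 (0.0545) or WT-LP2 (0.053) and with no filter (0.0727), with the replicate block (0.0711), in a fit to the 6 mutant libraries (0.0654). The bifunctional phosphomethylpyrimidine kinase and thiamin-phosphate pyrophosphorylase completed the 5 genes of the list, of which 1 rose and 2 fell (20% and 40%).

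RNA polymerase sigma factors direct the bacterial-type polymerase of plastids to its promoters. Of the 6 tested, 2 rose and 1 fell (33.3% and 16.7%). LOC_Os05g51150 stood at 2.28, 3.76 and 7.92 FPKM at high Pi and 41.3, 58.5 and 42.2 at low Pi (log2 fold 3.20, SE 0.29, adjusted p = 7.05e-05). LOC_Os08g14450 stood at 74.5, 97.9 and 95.5 FPKM at high Pi and 155, 166 and 158 at low Pi (0.84, adjusted p = 0.0011), a response that differed from WT (−0.08; difference 0.92, adjusted p = 0.0162). LOC_Os05g50930 fell, with 87.6, 103 and 134 FPKM at high Pi and 67.7, 45.6 and 48.6 at low Pi (−0.99, adjusted p = 0.0202). The call of LOC_Os05g50930 was lost without HP2 (0.0534), HP3 (0.0622), LP2 (0.0775) or LP3 (0.0651). The chloroplast DAG protein LOC_Os08g04450, from a family named after a chloroplast development gene of snapdragon, stood at 8.04, 13.2 and 26.7 FPKM at high Pi and 107, 163 and 101 at low Pi (2.99, adjusted p = 0.000229). Within high Pi it was highest in library 3, as was LOC_Os05g51150.

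**Figure D1:**
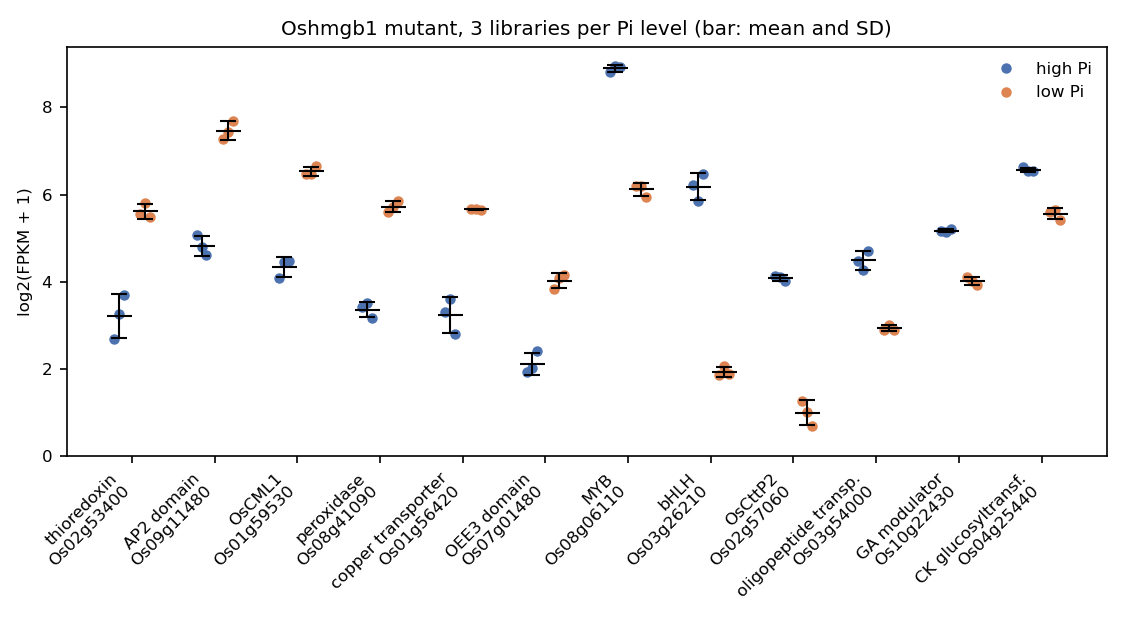
Expression of 12 genes in the mutant as log2(FPKM + 1); each dot is 1 library, blue at high Pi and orange at low Pi, and bars give the mean and SD of 3 libraries. The genes were chosen for a large fold or a small p, so the gap between Pi levels follows from the choice; high Pi is the more spread level for the thioredoxin LOC_Os02g53400 (5.47 to 12.0 FPKM).

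Among the other large rises were genes of signalling and redox. The AP2 domain gene LOC_Os09g11480, from a family of transcription factors, stood at 32.4, 26.7 and 23.4 FPKM at high Pi and 153, 173 and 205 at low Pi (log2 fold 2.65, SE 0.17, adjusted p = 5.98e-06). The RING-H2 finger protein LOC_Os01g60730 (RING-H2 domains are found in ubiquitin ligases), the membrane protein LOC_Os03g15910 and the DNA-binding protein DSP1 (LOC_Os01g50622) rose from high-Pi values of 0.12 to 1.41 FPKM, by 3.01, 2.92 and 2.71 (adjusted p at most 5.52e-05). The aldose 1-epimerase LOC_Os03g53710, which interconverts the anomers of sugars, stood at 2.44, 3.59 and 5.57 FPKM at high Pi and 20.7, 27.3 and 28.5 at low Pi (2.48, adjusted p = 9.9e-05). The thioredoxin LOC_Os07g48510 (2.80, adjusted p = 0.00168) and a phosphatase (LOC_Os03g49440; 2.78, adjusted p = 0.00537) rose as well. The peroxidase LOC_Os02g14440 stood at 90.8, 100.2 and 12.2 FPKM at high Pi and 206, 205 and 619 at low Pi (2.58, adjusted p = 0.0207), a call lost without LP3 (0.0781) and in a fit to the 6 mutant libraries (0.0799). OsFBX404 (LOC_Os11g09590), an F-box gene, had 0 FPKM listed in HP1, HP2 and HP3, and 11.3, 32.7 and 76.4 FPKM at low Pi. In WT it was listed at 0 in every library but WT-LP1 (0.09). The low-Pi libraries of the mutant differed from each other by a larger factor than those of any other gene named here as rising.

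The largest falls were in genes of several kinds. OsCttP2 (LOC_Os02g57060), a putative C-terminal processing peptidase, stood at 16.5, 16.2 and 15.1 FPKM at high Pi and 1.41, 1.01 and 0.62 at low Pi (log2 fold −3.09, SE 0.17, adjusted p = 1.75e-06). The transcriptional regulator LOC_Os10g18370 stood at 106, 74.6 and 45.5 FPKM at high Pi and 9.97, 8.94 and 7.95 at low Pi (−2.86, adjusted p = 9.26e-05). Inositol-3-phosphate synthase (LOC_Os03g09250), the enzyme that starts inositol synthesis from glucose 6-phosphate, stood at 55.8, 69.0 and 68.1 FPKM at high Pi and 17.5, 12.5 and 11.2 at low Pi (−2.16, adjusted p = 1.83e-05). The high-Pi values were spread in LOC_Os10g18370 and close together in OsCttP2. A late embryogenesis abundant protein (LOC_Os01g21250) stood at 123, 317 and 324 FPKM at high Pi and 24.2, 14.2 and 6.65 at low Pi (−4.03, adjusted p = 0.00285), with HP1 well under the other two. Falls also passed the test for a transporter (LOC_Os07g39350; −2.42, adjusted p = 0.00387), a serine/threonine-protein kinase receptor (LOC_Os04g34270; −2.26, adjusted p = 0.000293), a gene of the TIGR01615 family (LOC_Os05g44300; −2.22, adjusted p = 5.6e-05) and UP-9A (LOC_Os02g03710; −2.18, adjusted p = 0.00119). The abscisic stress-ripening gene LOC_Os01g72900 was listed at 0 in all 3 low-Pi libraries and at 13.9, 1.26 and 2.41 FPKM at high Pi; its call was lost without LP1 (0.055), LP2 (0.0592) or LP3 (0.0553) and in a fit to the 6 mutant libraries (0.0541). The glycosyl hydrolase LOC_Os01g47070 stood at 60.6, 7.30 and 25.1 FPKM at high Pi and 4.95, 4.42 and 3.18 at low Pi (−2.21, adjusted p = 0.0461). That call was lost without HP1 (0.139), HP3 (0.0944), LP1 (0.0865), LP2 (0.101), LP3 (0.121), WT-HP2 (0.0548), WT-HP3 (0.0569), WT-LP1 (0.0548) or WT-LP3 (0.0534) and with no filter (0.0841), in a fit to the 6 mutant libraries (0.0628).

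Genes that act on Pi itself were called in both directions and by moderate amounts. Phosphate transporter 1 (LOC_Os06g29790) stood at 4.63, 4.93 and 3.67 FPKM at high Pi and 11.2, 9.31 and 11.9 at low Pi (log2 fold 1.13, SE 0.16, adjusted p = 0.00106). The inorganic phosphate transporter LOC_Os04g10750 had 1.92, 2.15 and 1.65 FPKM at high Pi and 5.37, 3.67 and 7.63 at low Pi (1.13, adjusted p = 0.00223). The mitochondrial phosphate carrier LOC_Os02g52860, which brings Pi into the matrix for ATP synthesis, fell, with 87.8, 95.9 and 112 FPKM at high Pi and 44.9, 33.6 and 37.6 at low Pi (−1.33, adjusted p = 0.00219). Pi levels did not overlap in any of the 3 genes. Of 10 transporters tested, 2 rose and 3 fell (20% and 30%), a total of 5 that was 3 without HP2, LP2, LP3 or WT-LP2. Of 7 acid phosphatases, which free Pi from organic esters, 2 rose and 2 fell (28.6% and 28.6%). The risers were the purple acid phosphatases LOC_Os01g56880 (5.88, 5.61 and 4.68 FPKM at high Pi and 14.3, 13.9 and 18.9 at low Pi; 1.38, adjusted p = 0.000315) and LOC_Os12g44030 (0.68, adjusted p = 0.00608). The histidine acid phosphatase LOC_Os03g48300 fell (−0.52, adjusted p = 0.0115). Both tested SPX genes, whose domain binds inositol phosphates in Pi sensing, were higher at low Pi in every library. LOC_Os02g10780 stood at 7.59, 8.63 and 5.39 FPKM at high Pi and 38.4, 23.6 and 33.0 at low Pi (1.99, adjusted p = 0.018), a call lost without HP3 (0.0509), LP1 (0.0605) or LP3 (0.0529). LOC_Os06g40120 stood at 10.6, 14.2 and 6.18 FPKM at high Pi and 29.8, 18.4 and 30.3 at low Pi and did not pass (1.29, adjusted p = 0.0624), although it passed without WT-LP1 (0.0242) or WT-LP3 (0.0163) and in a fit to the 6 mutant libraries (0.033).

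Lipid genes included some of the largest rises. LOC_Os02g31030, a glycerophosphoryl diester phosphodiesterase, which splits the remains of phospholipids after their fatty acids are removed, stood at 0.53, 0.46 and 0.50 FPKM at high Pi and 14.6, 10.4 and 16.04 at low Pi (log2 fold 3.27, SE 0.54, adjusted p = 0.00204). LOC_Os04g35790, with a glycolipid transfer protein domain, stood at 4.78, 2.90 and 1.26 FPKM at high Pi and 34.5, 45.8 and 57.2 at low Pi (3.63, adjusted p = 0.000235). In both genes the lowest low-Pi value was far over the highest high-Pi value. Of 7 galactolipid and sulfolipid synthesis genes, 1 rose and 2 fell (14.3% and 28.6%). The 2 digalactosyldiacylglycerol synthases moved apart. LOC_Os11g05990 stood at 55.2, 48.1 and 38.9 FPKM at high Pi and 24.1, 28.4 and 19.6 at low Pi (−0.95, adjusted p = 0.0015). LOC_Os04g34000 had 0.55, 0.54 and 0.48 FPKM at high Pi and 2.29, 1.17 and 2.30 at low Pi (0.91, adjusted p = 0.00741). The monogalactosyldiacylglycerol synthase LOC_Os09g25580 fell (−0.72, adjusted p = 0.0104). Another, LOC_Os02g55910, stood at 0.57 and did not pass (adjusted p = 0.0984). Of 21 phospholipases, 1 rose and 1 fell (4.76% and 4.76%), and both calls were lost without LP1, LP3, HP2 or HP3. No member of the 4 tested ribonuclease T2 genes passed, with median log2 fold 0.02, although 1 of them passed without HP2.

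A bHLH gene annotated with iron starvation and a gene described as metal transporter Nramp6 fell to FPKM under 1, and both ferritin genes rose. The bHLH gene LOC_Os01g72370, annotated in the files with the cellular response to iron starvation, stood at 51.5, 33.3 and 112 FPKM at high Pi and 0.04, 0.11 and 0.07 at low Pi (log2 fold −5.78, SE 0.39, adjusted p = 7.03e-06). LOC_Os07g15460, by description the metal transporter Nramp6, is from a family that moves divalent metals. It stood at 23.9, 24.0 and 144 FPKM at high Pi and 0.56, 0.45 and 0.44 at low Pi (−4.92, adjusted p = 0.000178). A further bHLH gene, LOC_Os03g26210, stood at 73.2, 56.9 and 88.4 FPKM at high Pi and 2.63, 3.19 and 2.68 at low Pi (−4.25, adjusted p = 2.34e-07). HP3 was the highest of the 3 in each gene, by the widest margin in LOC_Os07g15460. LOC_Os01g45914, described only as expressed protein and chosen after its values were seen, had the most negative fold of all, with 526, 499.5 and 1634 FPKM at high Pi and 6.39, 2.01 and 0.61 at low Pi (−7.84, adjusted p = 1.75e-05), again with library 3 highest at high Pi. Nicotianamine synthase (LOC_Os07g48980), the maker of an iron chelator, was near 0 at high Pi and at 0.74, 0.56 and 0.67 FPKM at low Pi (0.64, adjusted p = 0.00317). No mutant library reached the filter of 1 FPKM for this gene, so it was tested only through its WT values. The ferritins store iron in plastids. LOC_Os11g01530 had 32.1, 21.4 and 75.6 FPKM at high Pi and 104, 80.4 and 125 at low Pi (1.41, adjusted p = 0.0275). LOC_Os12g01530 had 27.2, 20.6 and 55.7 FPKM at high Pi and 70.6, 53.1 and 83.1 at low Pi (1.08, adjusted p = 0.0308). HP3 was the highest of its group here as well, and for LOC_Os12g01530 it exceeded LP2, so the Pi levels overlapped. For LOC_Os11g01530 the call was lost without HP1 (0.0721), HP2 (0.1), LP1 (0.0706) or LP3 (0.0892) and with no filter (0.0521), in a fit to the 6 mutant libraries (0.0674). For LOC_Os12g01530 it was lost without HP1 (0.083), HP2 (0.114), LP1 (0.0805) or LP3 (0.103) and with no filter (0.057), in a fit to the 6 mutant libraries (0.0834). The ferritin loci may share reads, which the deposited values do not resolve.

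Of 38 metal transporters tested, 2 rose and 5 fell (5.26% and 13.2%). The Ctr copper transporter LOC_Os01g56420 stood at 8.94, 11.1 and 5.97 FPKM at high Pi and 50.2, 49.6 and 49.0 at low Pi (log2 fold 2.42, SE 0.21, adjusted p = 5.6e-05), the largest rise of the list. The metal cation transporters LOC_Os07g12890 (5.61, 6.97 and 6.40 FPKM at high Pi and 1.66, 2.39 and 1.51 at low Pi; −1.37, adjusted p = 0.00188) and LOC_Os06g37010 (−0.68, adjusted p = 0.00714) fell. The copper transporter and LOC_Os07g12890 each had Pi levels that did not overlap.

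Genes of the circadian clock and of light signalling were called in both directions, and since the hour of harvest is not given, their part in the other results was not tested. The MYB gene LOC_Os08g06110, placed by the files in the orthology group of LHY, a clock gene, stood at 448, 496 and 483 FPKM at high Pi and 72.6, 72.6 and 60.7 at low Pi (log2 fold −2.78, SE 0.15, adjusted p = 1.12e-06). Of 34 clock and light signalling genes tested, 7 rose and 6 fell (20.6% and 17.6%). The B-box gene LOC_Os08g42440 rose, with 3.27, 3.15 and 2.76 FPKM at high Pi and 7.12, 9.46 and 11.3 at low Pi (1.32, adjusted p = 0.000145). Another B-box gene, LOC_Os09g06464, fell, with 37.9, 40.8 and 34.4 FPKM at high Pi and 22.8, 20.1 and 18.1 at low Pi (−0.86, adjusted p = 0.00171). Pi levels overlapped in neither. LOC_Os02g49880, also a B-box gene, stood at 2.72, 3.09 and 1.53 FPKM at high Pi and 9.30, 12.0 and 11.7 at low Pi (1.82, adjusted p = 0.00293) and differed in response from WT (−0.93; difference 2.75, adjusted p = 0.00978). LOC_Os07g49460, with a response regulator receiver domain, stood at 53.9, 65.9 and 71.2 FPKM at high Pi and 98.3, 97.7 and 89.8 at low Pi (0.58, adjusted p = 0.0036). None of the 3 tested genes of the phosphatidylethanolamine-binding family, to which the flowering gene FT belongs, passed, although LOC_Os09g33850 (−0.71, adjusted p = 0.0791) passed without LP3 (0.0148).

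Of 83 photosystem and light harvesting genes, 4 rose and 4 fell, or 4.82% in each direction beside 10.5% higher and 8.28% lower over all genes tested, with median log2 fold 0.16. An oxygen evolving enhancer 3 domain gene (LOC_Os07g01480), from a family of proteins at the water-splitting site, stood at 2.81, 3.07 and 4.31 FPKM at high Pi and 13.3, 16.01 and 16.8 at low Pi (log2 fold 1.91, SE 0.15, adjusted p = 1.92e-05). The PSB28 protein of photosystem II (LOC_Os01g71190) stood at 45.4, 52.4 and 60.2 FPKM at high Pi and 34.0, 22.6 and 24.2 at low Pi (−0.95, adjusted p = 0.00221). The chlorophyll A-B binding genes LOC_Os09g26810 (0.91, adjusted p = 0.00105) and LOC_Os02g52650 (−0.73, adjusted p = 0.00407) moved in opposite directions. Of 40 Calvin cycle and triose phosphate enzymes, 1 rose and 7 fell (2.50% and 17.5%). Without HP2 the counts were 0 and 3, and without LP2 they were 0 and 4. The glyceraldehyde-3-phosphate dehydrogenase LOC_Os02g38920 stood at 197, 163 and 229 FPKM at high Pi and 77.8, 65.0 and 65.7 at low Pi (−1.48, adjusted p = 0.000865). The fructose-1,6-bisphosphatase LOC_Os01g64660, which controls the flow of triose phosphate into sugar, stood at 125, 160.4 and 147 FPKM at high Pi and 106, 86.2 and 100.4 at low Pi (−0.56, adjusted p = 0.00741). In both genes every low-Pi library was under every high-Pi library. Of 20 chlorophyll and tetrapyrrole genes, 2 rose and 1 fell (10% and 5%), among them uroporphyrinogen decarboxylase LOC_Os03g22060 (0.71, adjusted p = 0.00032) and protoporphyrinogen oxidase LOC_Os01g18320 (0.54, adjusted p = 0.00728).

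Enzymes of sucrose, starch and trehalose were called in both directions, 9 rose and 11 fell (15.3% and 18.6%) of 59, or 5 and 7 without HP2. The beta-amylase LOC_Os03g04770, which releases maltose from starch, stood at 36.8, 60.7 and 51.5 FPKM at high Pi and 14.8, 11.7 and 9.82 at low Pi (log2 fold −1.94, SE 0.26, adjusted p = 0.000721). A starch synthase (LOC_Os05g45720; 0.77, adjusted p = 0.000738) and a sucrose synthase (LOC_Os03g28330; 1.11, adjusted p = 0.000952) rose. The trehalose-6-phosphate synthase LOC_Os05g44210 stood at 3.27, 3.25 and 3.37 FPKM at high Pi and 6.43, 5.43 and 7.02 at low Pi (0.76, adjusted p = 0.00171). The Pi levels of the beta-amylase and of this synthase were fully separated. The response of LOC_Os05g44210 differed from WT (−0.31; difference 1.07, adjusted p = 0.00815), and so did that of LOC_Os02g54820, a further trehalose-6-phosphate synthase, with 11.3, 13.5 and 7.65 FPKM at high Pi and 37.9, 40.7 and 37.2 at low Pi (1.78, adjusted p = 0.00264; WT −1.63; difference 3.41, adjusted p = 0.00296).

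A chloroplast glutamate synthase (LOC_Os05g48200), which builds glutamate from glutamine, stood at 8.77, 13.5 and 10.96 FPKM at high Pi and 34.0, 70.2 and 65.3 at low Pi (log2 fold 2.20, SE 0.28, adjusted p = 0.000534). The ammonium transporter LOC_Os04g43070 stood at 71.99, 71.5 and 84.2 FPKM at high Pi and 34.7, 30.7 and 26.8 at low Pi (−1.28, adjusted p = 0.000633). Neither overlapped between Pi levels, and of 22 nitrogen genes 1 rose and 3 fell (4.55% and 13.6%, together near the 18.8% over all genes tested), or 1 and 1 without LP1. A sulfate transporter (LOC_Os01g45830) rose from 1.99, 1.46 and 1.67 to 3.40, 4.52 and 5.39 FPKM (0.99, adjusted p = 0.00179). LOC_Os04g02050, described as a bifunctional phosphoadenosine phosphosulfate enzyme of sulfate assimilation, fell from 29.3, 45.8 and 65.6 to 17.8, 14.8 and 12.6 (−1.52, adjusted p = 0.00345). In the latter the 3 high-Pi values were spread, all above the low-Pi values. Of 11 genes of sulfate transport and assimilation, 1 rose and 2 fell (9.09% and 18.2%). Of 50 peptide and nitrate transporters, 7 rose and 7 fell (14.0% and 14.0%). The oligopeptide transporter LOC_Os03g54000 had the smallest p, with 21.2, 18.4 and 25.2 FPKM at high Pi and 6.42, 7.08 and 6.46 at low Pi (−1.55, adjusted p = 1.63e-05). The proton-dependent oligopeptide transporter LOC_Os01g65200 rose, with 3.59, 4.03 and 3.88 FPKM at high Pi and 9.42, 9.76 and 10.4 at low Pi (1.17, adjusted p = 2.56e-05). Replicates of both lay close together, and Pi levels did not overlap. Next in p were PTR2 LOC_Os10g02240 (1.3, adjusted p = 0.000253) and LOC_Os01g65100 (−1.50, adjusted p = 0.000736). Of 19 aquaporins, which let water and small solutes through membranes, 4 rose and 1 fell (21.1% and 5.26%). LOC_Os05g14240 stood at 52.8, 36.6 and 26.7 FPKM at high Pi and 148, 179 and 303 at low Pi (2.39, adjusted p = 0.000397). LOC_Os09g36930 stood at 31.9, 56.6 and 44.0 FPKM at high Pi and 132, 134 and 209 at low Pi (1.82, adjusted p = 0.00104). LP3 was the highest library in both. LOC_Os07g26690 fell (−0.86, adjusted p = 0.00131).

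Among cytokinin and gibberellin genes that passed the test, more fell than rose. Of 32 cytokinin genes, 2 rose and 8 fell (6.25% and 25.0%, beside 10.5% and 8.28% over all genes tested), with median −0.28. Without HP2 or LP3 the counts were 1 and 5. The cytokinin-O-glucosyltransferases LOC_Os04g25440 (97.5, 91.4 and 91.5 FPKM at high Pi and 47.8, 49.2 and 41.7 at low Pi; −1.0, adjusted p = 6.87e-05), LOC_Os07g30620 (−0.97, adjusted p = 0.00223) and LOC_Os04g25800 (−1.27, adjusted p = 0.00334), by description enzymes that attach glucose to cytokinins, fell, as did the histidine kinase LOC_Os07g38910 (−1.40, adjusted p = 0.00373). Of 49 gibberellin genes, 4 rose and 9 fell (8.16% and 18.4%), or 2 and 6 without HP2 or LP3. The gibberellin response modulator LOC_Os10g22430 stood at 35.1, 34.1 and 36.0 FPKM at high Pi and 16.1, 15.2 and 14.2 at low Pi (−1.16, adjusted p = 2.23e-05). The receptor-like genes GID1L2 LOC_Os07g44860 (−0.57, adjusted p = 0.00465) and LOC_Os08g37030 (−0.81, adjusted p = 0.00777) fell too. The GRAS family gene LOC_Os01g71970 fell in the mutant, from 17.6, 13.7 and 16.6 to 6.55, 7.00 and 7.29 FPKM (−1.09, adjusted p = 0.00186), and rose in WT (1.32; difference −2.41, adjusted p = 0.000924).

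Abscisic acid closes stomata and marks water deficit. Of 75 abscisic acid, late embryogenesis abundant and protein phosphatase 2C genes, 13 rose and 8 fell (17.3% and 10.7%, beside 10.5% and 8.28% over all genes tested), with median −0.02. The counts were 7 and 6 without HP2, 9 and 4 without LP2, and 6 and 5 without LP3. The phosphatase LOC_Os01g62760, of a family that holds abscisic acid signalling in check, stood at 3.83, 5.79 and 4.49 FPKM at high Pi and 14.9, 20.04 and 15.5 at low Pi (1.65, adjusted p = 0.000406), a response that differed from WT (0.10; difference 1.55, adjusted p = 0.0148). LOC_Os05g46040 (0.67, adjusted p = 0.000916) and LOC_Os01g37130 (0.65, adjusted p = 0.00212) rose, and LOC_Os02g05630 fell (−0.50, adjusted p = 0.00261). Of 81 auxin genes, 9 rose and 8 fell (11.1% and 9.88%). Those counts were 4 and 4 without HP2, 4 and 6 without LP2, and 6 and 5 without LP3. The auxin efflux carrier LOC_Os08g09190 rose, with 14.5, 11.2 and 13.5 FPKM at high Pi and 23.8, 25.4 and 23.6 at low Pi (0.85, adjusted p = 0.00325). A further carrier, LOC_Os09g38130, fell, with 25.2, 28.3 and 24.4 FPKM at high Pi and 9.62, 9.61 and 5.97 at low Pi (−1.54, adjusted p = 0.00507). Neither overlapped between Pi levels. The auxin response factor LOC_Os02g41800 fell (−0.83, adjusted p = 0.00392), and the auxin-repressed protein LOC_Os08g35190 rose (1.26, adjusted p = 0.00477). Of 19 ethylene genes, 3 rose and 2 fell (15.8% and 10.5%), or 2 and 1 without HP1, HP2 or LP1. The ACC oxidase LOC_Os05g05670, of the enzymes that release ethylene, stood at 16.3, 16.3 and 8.31 FPKM at high Pi and 4.35, 3.72 and 5.34 at low Pi (−1.37, adjusted p = 0.00232), while its homologue LOC_Os03g64280 rose (0.66, adjusted p = 0.0109).

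Jasmonate is a hormone of defence and wounding. Of 8 ZIM domain genes, repressors of the jasmonate response, 0 rose and 1 fell (12.5% called, beside 18.8% over all genes tested). That gene, LOC_Os08g33160, stood at 51.3, 52.1 and 49.6 FPKM at high Pi and 16.2, 25.2 and 21.5 at low Pi (−1.27, adjusted p = 0.000443; difference from WT −1.10, adjusted p = 0.0237). Of 14 jasmonate synthesis genes, 2 rose and 0 fell (14.3% called). The 12-oxophytodienoate reductase LOC_Os01g27230 stood at 10.8, 8.55 and 9.16 FPKM at high Pi and 17.6, 16.5 and 23.2 at low Pi (0.93, adjusted p = 0.000979). Pi levels did not overlap in either gene. The other, LOC_Os02g35310 (0.70, adjusted p = 0.0284), was lost without HP2 (0.0527), HP3 (0.0846), LP1 (0.0856), LP2 (0.0635) or LP3 (0.0642) and with no filter (0.0557), with the replicate block (0.0518). Of 52 WRKY genes, 2 rose and 2 fell (3.85% and 3.85%), with WRKY61 (LOC_Os11g45850) at 28.4, 29.2 and 24.6 FPKM at high Pi and 39.5, 40.5 and 48.3 at low Pi (0.62, adjusted p = 0.00966). The WRKY counts were 1 and 0 without HP2 or LP1, and 1 and 1 without HP3 or LP2. Of 145 NBS-LRR receptors, intracellular sensors of pathogens, 8 rose and 4 fell (5.52% and 2.76%). The counts were 3 and 2 without HP2, 4 and 1 without LP1, and 4 and 2 without LP3. The RPM1-type gene LOC_Os11g11770 fell (−0.86, adjusted p = 0.00378) and LOC_Os06g06380 rose (0.63, adjusted p = 0.00375).

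Of 39 pathogenesis-related genes, 4 rose and 3 fell (10.3% and 7.69%). The counts were 3 and 0 without HP1 or LP2, 2 and 1 without HP2, and 3 and 1 without LP3. The chitinase CHIT12 (LOC_Os08g41100), of enzymes that cut fungal walls, stood at 2.55, 1.95 and 1.35 FPKM at high Pi and 7.35, 9.06 and 10.1 at low Pi (1.75, adjusted p = 0.000108), and the thaumatin LOC_Os09g36580 rose in the mutant (1.11, adjusted p = 0.00434; WT −0.18; difference 1.29, adjusted p = 0.0379). Of 106 wall-associated and DUF26 receptor kinases, 4 rose and 5 fell (3.77% and 4.72%), or 2 and 3 without LP3. The DUF26 kinases LOC_Os07g43570 and LOC_Os07g43560, which carry neighbouring locus numbers, both rose. The former had 0.81, 2.52 and 2.55 FPKM at high Pi and 14.6, 20.9 and 12.8 at low Pi (2.57, adjusted p = 0.000108). The latter had 2.99, 11.4 and 7.76 FPKM at high Pi and 22.8, 29.0 and 22.0 at low Pi (1.75, adjusted p = 0.00534). HP1 was the lowest for both kinases, and all high-Pi values were below all low-Pi values. The kinases LOC_Os07g35750 (−1.07, adjusted p = 0.00384) and OsWAK10d LOC_Os01g49529 (−0.61, adjusted p = 0.0039; difference from WT −0.97, adjusted p = 0.00983) fell.

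Class III peroxidases, secreted enzymes that act on cell walls and on hydrogen peroxide, were called in 14 of 41 tested, 9 rose and 5 fell (22.0% and 12.2%). LOC_Os08g41090 stood at 9.64, 10.3 and 8.01 FPKM at high Pi and 47.4, 51.1 and 56.5 at low Pi (log2 fold 2.35, SE 0.14, adjusted p = 2.3e-06). LOC_Os04g59190 had 1.12, 1.41 and 1.09 FPKM at high Pi and 7.40, 9.56 and 12.5 at low Pi (2.27, adjusted p = 9.2e-06). LOC_Os01g73200 fell, with 106, 70.5 and 60.9 FPKM at high Pi and 22.9, 17.9 and 24.8 at low Pi (−1.78, adjusted p = 0.00573), as did LOC_Os06g32990 (−1.33, adjusted p = 0.0049). Pi levels overlapped in none of the 4. Without LP3 the counts were 2 and 3, without LP2 they were 3 and 4, and without HP2 they were 4 and 4. Among glutathione, glutaredoxin and thioredoxin genes, 13 rose and 12 fell (11.4% and 10.5%) of 114, or 10 and 6 without HP2 and 10 and 5 without LP2. Thioredoxins and glutaredoxins are small proteins that reduce disulfide bonds in others. The thioredoxin LOC_Os02g53400 had 5.47, 8.55 and 12.0 FPKM at high Pi and 46.2, 55.0 and 43.6 at low Pi (2.40, adjusted p = 4.85e-05). The thioredoxin LOC_Os01g61320 had 2.15, 2.05 and 2.60 FPKM at high Pi and 6.66, 6.19 and 6.59 at low Pi (1.20, adjusted p = 0.00119). The glutaredoxin LOC_Os07g46570 fell, with 8.70, 9.45 and 9.34 FPKM at high Pi and 4.41, 4.62 and 4.45 at low Pi (−0.89, adjusted p = 0.000725). None of the 3 overlapped between Pi levels. Of 110 cytochrome P450 genes, oxidases of hormones and secondary compounds, 14 rose and 6 fell (12.7% and 5.45%), or 8 and 4 without LP2 and 9 and 4 without LP3. LOC_Os09g36080 stood at 51.6, 47.3 and 50.4 FPKM at high Pi and 80.3, 92.6 and 92.2 at low Pi (0.81, adjusted p = 0.000162). LOC_Os02g47470, which the files place with the enzymes that break down abscisic acid, fell, with 32.0, 47.7 and 7.85 FPKM at high Pi and 1.41, 1.82 and 1.67 at low Pi (−3.20, adjusted p = 0.0036). HP3 was the lowest of its group for LOC_Os02g47470. Of 71 UDP and cytokinin glucosyltransferases, 7 rose and 10 fell (9.86% and 14.1%), including the anthocyanidin glucosyltransferase LOC_Os05g45080 (−0.88, adjusted p = 0.00024; difference from WT −0.68, adjusted p = 0.0241). By name, this list and that of cytokinin genes both take in cytokinin glucosyltransferases, so their counts are not separate results.

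Calcium sensors were split. Of 91 calmodulin and EF-hand genes, 6 rose and 8 fell (6.59% and 8.79%). OsCML1 (LOC_Os01g59530) stood at 15.8, 20.9 and 21.3 FPKM at high Pi and 88.0, 88.2 and 99.6 at low Pi (log2 fold 2.20, SE 0.12, adjusted p = 1.12e-06). The EF hand gene LOC_Os03g29770 rose as well, with 37.5, 22.7 and 27.4 FPKM at high Pi and 67.7, 96.8 and 116 at low Pi (1.64, adjusted p = 0.000803). OsCML27 (LOC_Os03g21380) fell, with 13.6, 14.4 and 13.2 FPKM at high Pi and 6.70, 6.08 and 5.40 at low Pi (−1.07, adjusted p = 0.00207). No Pi levels overlapped in these genes, and the low-Pi replicates of OsCML1 lay closest together. Of the heat shock proteins and chaperones, which fold other proteins, 13 rose and 17 fell (9.49% and 12.4%) of 137 tested, or 10 and 9 without LP3. DnaJ genes, co-chaperones, gave the smallest p in both directions. LOC_Os03g18870 stood at 9.03, 10.9 and 14.9 FPKM at high Pi and 32.0, 43.0 and 38.1 at low Pi (1.63, adjusted p = 0.00114). LOC_Os08g35160 fell, with 58.1, 56.9 and 45.8 FPKM at high Pi and 27.3, 23.6 and 23.9 at low Pi (−1.07, adjusted p = 0.000977). LOC_Os01g42190 rose less in the mutant (1.5, adjusted p = 0.00105) than in WT (2.92; difference −1.42, adjusted p = 0.0299).

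Transcription factors were called in both directions; differences between the families were not tested. Of 111 MYB genes, 16 rose and 10 fell (14.4% and 9.01%, beside 10.5% and 8.28% over all genes tested), or 10 and 6 without LP2. LOC_Os09g31454 (18.4, 18.2 and 16.3 FPKM at high Pi and 27.5, 30.6 and 31.2 at low Pi; 0.73, adjusted p = 0.000476) and LOC_Os02g04640 (0.99, adjusted p = 0.00152) rose. Of 65 AP2/ERF genes, 7 rose and 9 fell (10.8% and 13.8%). LOC_Os03g08470 rose, with 15.98, 12.7 and 12.1 FPKM at high Pi and 28.7, 34.6 and 45.4 at low Pi (1.34, adjusted p = 0.000722). LOC_Os09g20350 fell, with 195, 206 and 176 FPKM at high Pi and 124, 122 and 131 at low Pi (−0.61, adjusted p = 0.00138), and so did LOC_Os01g04020 (−0.68, adjusted p = 0.0041). Pi levels did not overlap in these genes. The responses of both fallers differed from WT folds of 0.35 and 0.45 (differences −0.95, adjusted p = 0.00452 and −1.13, adjusted p = 0.00839). The AP2/ERF counts were 5 and 4 without HP2, 5 and 5 without LP1, 5 and 3 without LP2, and 4 and 6 without LP3. Of 48 bHLH genes, 4 rose and 6 fell (8.33% and 12.5%), among them LOC_Os08g04390 (−0.54, adjusted p = 0.00496) and LOC_Os01g68700 (0.53, adjusted p = 0.00517). Of 46 NAC genes, 1 rose and 5 fell (2.2% and 10.9%). LOC_Os11g08210 stood at 19.9, 24.3 and 28.4 FPKM at high Pi and 8.06, 7.94 and 9.37 at low Pi (−1.40, adjusted p = 0.00491; difference from WT −2.06, adjusted p = 0.0161). LOC_Os09g33490 had 33.9, 26.7 and 27.7 FPKM at high Pi and 13.2, 13.4 and 10.3 at low Pi (−1.20, adjusted p = 0.00473). The NAC counts were 0 and 3 without HP2, LP2 or WT-HP3, 1 and 2 without LP1, and 0 and 2 without LP3. Of 50 homeobox genes, 8 rose and 6 fell (16% and 12.0%), or 4 and 3 without HP2, 6 and 2 without LP1 and 4 and 4 without LP2. The knotted-1 gene LOC_Os06g43860 stood at 161, 153 and 154 FPKM at high Pi and 252, 266 and 297 at low Pi (0.79, adjusted p = 0.000335). The homeobox gene LOC_Os06g39906 rose (0.94, adjusted p = 0.00138). The HD-Zip gene LOC_Os04g45810 fell, with 6.20, 8.80 and 9.41 FPKM at high Pi and 2.33, 1.01 and 1.21 at low Pi (−1.88, adjusted p = 0.000747). The homeodomain gene LOC_Os01g21590 fell too (−1.28, adjusted p = 0.0002; difference from WT −1.08, adjusted p = 0.0134).

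Cell wall genes were called in both directions. Of 28 expansins and wall-loosening enzymes, 5 rose and 5 fell (17.9% and 17.9%). The polygalacturonase LOC_Os05g46520, which cuts pectin, stood at 1.70, 1.38 and 1.43 FPKM at high Pi and 8.73, 12.3 and 10.5 at low Pi (log2 fold 2.19, SE 0.15, adjusted p = 9.2e-06). The expansins LOC_Os01g60770 (9.47, 4.54 and 5.19 FPKM at high Pi and 1.26, 1.20 and 0.88 at low Pi; −1.75, adjusted p = 0.00058) and LOC_Os05g39990 (−1.27, adjusted p = 0.00634), proteins that loosen walls, fell. All 3 were separated between Pi levels. Of 33 cellulose synthase and lignin genes, 3 rose and 4 fell (9.09% and 12.1%), with CSLA5 (LOC_Os03g26044) higher (0.86, adjusted p = 0.00207) and the phenylalanine ammonia-lyase LOC_Os04g43760, the entry enzyme of phenylpropanoids, lower (−0.82, adjusted p = 0.00438). Those counts were 3 and 1 without HP1, 2 and 2 without HP2 or LP1, and 2 and 1 without LP2. Of 33 lipid transfer proteins, 3 rose and 2 fell (9.09% and 6.06%), or 2 and 1 without LP2, with LTPL40 (LOC_Os07g18990) higher (1.21, adjusted p = 0.00184) and LTPL83 (LOC_Os03g58940) lower (−0.85, adjusted p = 0.00345; difference from WT −1.03, adjusted p = 0.0275).

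**Figure D2:**
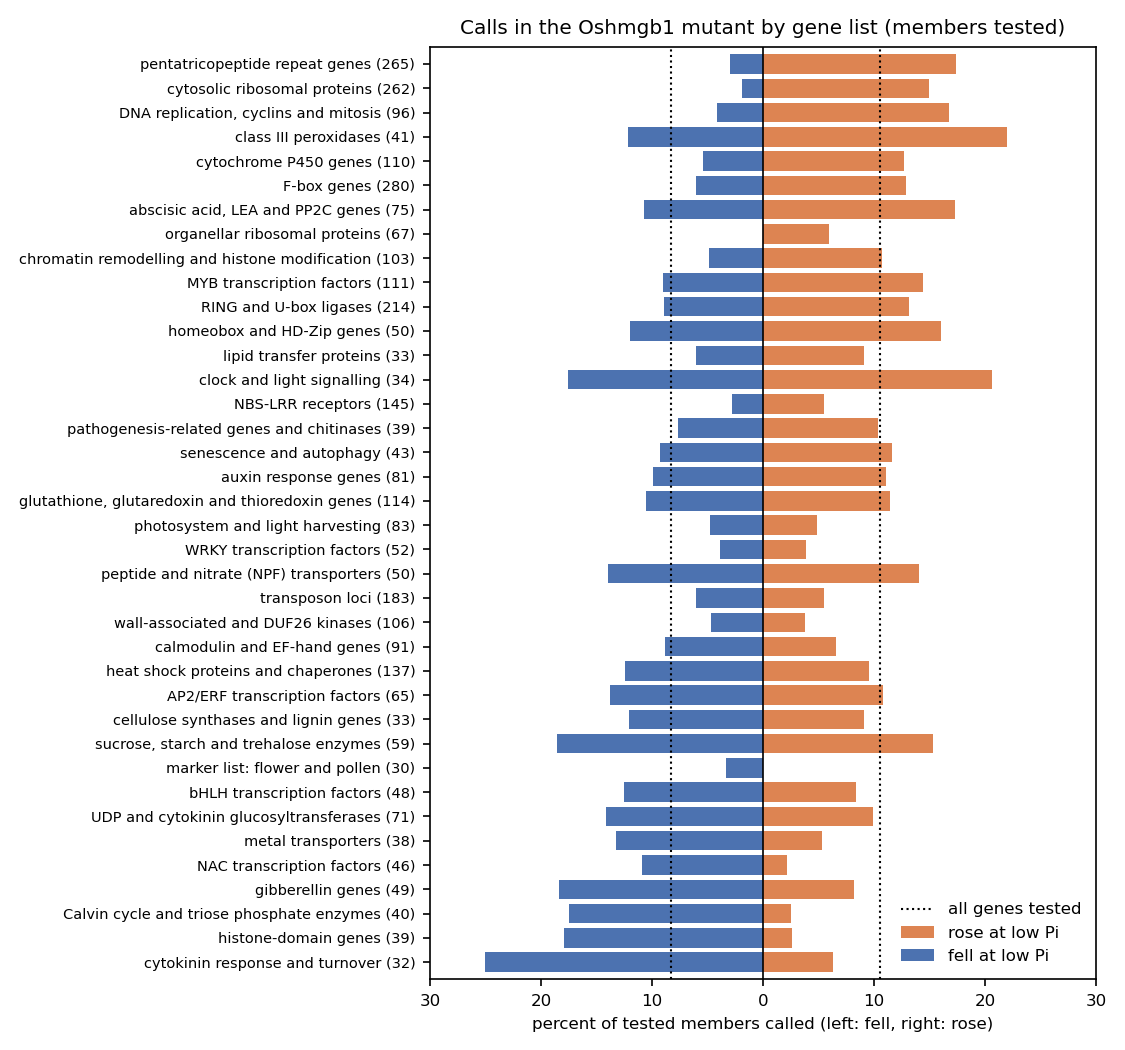
Percent of tested members called in the mutant for gene lists with 30 or more tested members; orange bars to the right rose, blue bars to the left fell, and dotted lines mark 10.5% and 8.28% over all genes tested. Pentatricopeptide repeat genes reach 17.4% on the right with 3.02% on the left, and cytokinin genes extend furthest to the left.

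Among cytosolic ribosomal protein genes that passed the test, more rose than fell. Of 262 cytosolic ribosomal protein genes, 39 rose and 5 fell (14.9% and 1.91%, beside 10.5% and 8.28% over all genes tested), with median 0.18 against 0.00 over all genes tested. Ribosomal protein L24 (LOC_Os11g04370) stood at 3.64, 2.97 and 3.23 FPKM at high Pi and 5.74, 5.84 and 7.46 at low Pi (0.77, adjusted p = 0.00384). Ribosomal protein L7Ae (LOC_Os06g16290) stood at 5.97, 6.81 and 10.6 FPKM at high Pi and 19.6, 19.2 and 13.6 at low Pi (1.09, adjusted p = 0.00493), and an L1P family gene (LOC_Os06g35470) rose (0.72, adjusted p = 0.0039). These examples were low-abundance loci, and ribosomal protein genes have many near-identical copies, so the values of single loci are uncertain. The count depended on single libraries: 13 rose and 7 fell without HP2, 70 and 3 without HP3, 14 and 2 without LP1, 13 and 1 without LP2, and 26 and 1 without LP3. The median was 0.03 without HP2 and 0.32 without HP3. The counts were 23 and 3 with no filter on low values, 25 and 4 with the replicate block, and 20 and 3 in the fit to the 6 mutant libraries alone. Of 29 rRNA processing genes, 8 rose and 1 fell (27.6% and 3.45%), with median 0.19. The median was 0.38 without HP3, where 12 rose and 1 fell, and 0.29 without LP3. The nucleolar complex protein LOC_Os04g49580 stood at 7.95, 4.78 and 6.63 FPKM at high Pi and 14.1, 16.4 and 15.7 at low Pi (1.16, adjusted p = 0.000596). NOP5-1 (LOC_Os03g22730) stood at 11.9, 11.9 and 17.1 FPKM at high Pi and 32.2, 35.5 and 23.9 at low Pi (1.11, adjusted p = 0.00356), and fibrillarin 2 (LOC_Os05g08360), which methylates rRNA, rose (0.67, adjusted p = 0.00742). Every low-Pi library exceeded every high-Pi library in these genes.

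Pentatricopeptide repeat proteins bind and process RNA of plastids and mitochondria, and 46 rose and 8 fell (17.4% and 3.02%) of 265, with median 0.12. Without HP2 the counts were 30 and 5, and without LP2 they were 28 and 5. LOC_Os10g28600 stood at 3.0, 4.42 and 6.96 FPKM at high Pi and 19.6, 17.9 and 15.9 at low Pi (log2 fold 1.75, SE 0.20, adjusted p = 0.000305). LOC_Os02g07360 had 21.5, 31.9 and 37.2 FPKM at high Pi and 73.9, 69.0 and 78.2 at low Pi (1.29, adjusted p = 0.000423). LOC_Os01g71180 had 0.64, 0.64 and 0.72 FPKM at high Pi and 3.09, 2.40 and 2.27 at low Pi (1.10, adjusted p = 0.000215). Pi levels did not overlap, and in the former pair HP3 was the highest of its level. Of 67 organellar ribosomal protein genes, 4 rose and 0 fell (5.97% and 0%). Their median was −0.23 and ran from −0.35 to 0.00 under the alternatives. Some members had near-equal folds, such as LOC_Os04g16812, LOC_Os07g25014 and LOC_Os09g24402 (−0.58, −0.57 and −0.58 in the mutant and −0.41 each in WT). Such loci may share reads, which the deposited values do not resolve, so the median may count the same signal repeatedly. The chloroplast L21 gene (LOC_Os05g48410) stood at 6.40, 5.03 and 6.67 FPKM at high Pi and 13.5, 14.0 and 12.3 at low Pi (1.03, adjusted p = 0.00136), and the L20 gene LOC_Os05g45220 rose (0.64, adjusted p = 0.00195).

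**Figure D3:**
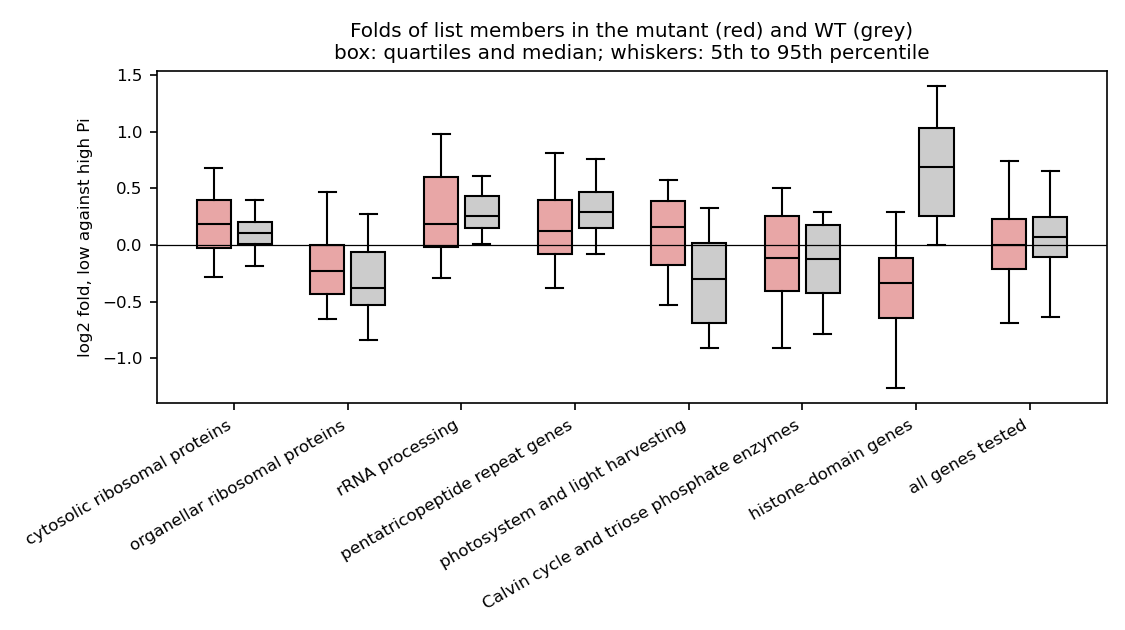
Distribution of log2 folds (low against high Pi) over the tested members of 7 gene lists and over all genes tested, red for the mutant and grey for WT; boxes give quartiles and median, whiskers the 5th to 95th percentile. Cytosolic ribosomal, rRNA processing and pentatricopeptide medians lie above 0 in the mutant (0.18, 0.19 and 0.12), and the organellar ribosomal median is −0.23. The histone-domain median is −0.33 in the mutant and 0.69 in WT.

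Histone genes mostly fell and cell-cycle genes mostly rose among those that passed. Genes with a histone domain, by description mostly core histones, with which the files also describe other proteins of that fold, numbered 39 tested, of which 1 rose and 7 fell (2.56% and 17.9%), together near the 18.8% over all genes tested, with median −0.33. The histone H3 gene LOC_Os06g04030 stood at 539, 630.2 and 736 FPKM at high Pi and 246, 224 and 252 at low Pi (log2 fold −1.39, SE 0.28, adjusted p = 0.00637). The core histone gene LOC_Os12g25120 had 10.7, 14.4 and 16.3 FPKM at high Pi and 4.40, 4.03 and 4.19 at low Pi (−1.49, adjusted p = 0.00983). The exception, LOC_Os03g14669, stood at 77.2, 99.7 and 72.4 FPKM at high Pi and 137, 147 and 156 at low Pi (0.82, adjusted p = 0.00395). HP3 was the highest for both fallers, and neither overlapped between Pi levels. Summed over the 59 listed loci, histone-domain FPKM was 4275, 4846 and 5894 at high Pi and 3631, 3096 and 3526 at low Pi. The count of called genes was 2 up and 3 down without HP1, 1 and 2 without HP2 or LP2, 1 and 4 without HP3 or LP1, and 1 and 3 without LP3 or with no filter on low values. Histone genes are near-identical, so the values of single loci are uncertain.

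Of 96 DNA replication, cyclin and mitosis genes, 16 rose and 4 fell (16.7% and 4.17%), with median 0.08, or 8 and 2 without HP2 or LP2. Cyclin-B1-1 (LOC_Os05g42200), which drives entry into mitosis, stood at 2.37, 2.35 and 2.22 FPKM at high Pi and 4.42, 3.85 and 4.99 at low Pi (0.70, adjusted p = 0.0015). A cyclin-dependent kinase inhibitor (LOC_Os10g33310), which holds the cycle back, rose too, with 8.84, 6.99 and 7.63 FPKM at high Pi and 13.8, 17.4 and 16.1 at low Pi (0.93, adjusted p = 0.00179). A kinesin (LOC_Os04g17700; 0.58, adjusted p = 0.00192) and a mitotic checkpoint gene (LOC_Os01g44394; 0.76, adjusted p = 0.00234) rose. Summed over the list, FPKM was 1023, 998 and 972 at high Pi and 966, 1006 and 1026 at low Pi, so the levels overlapped. Of 103 chromatin genes, 11 rose and 5 fell (10.7% and 4.85%), or 7 and 3 without HP2, LP1 or LP3, and 6 and 2 without LP2. A bromodomain gene (LOC_Os04g53170), whose domain reads acetylated histones, stood at 30.3, 29.3 and 32.0 FPKM at high Pi and 44.98, 50.5 and 50.5 at low Pi (0.65, adjusted p = 0.000705). The SNF2 gene LOC_Os03g51230 had 1.02, 1.05 and 0.98 FPKM at high Pi and 2.66, 3.32 and 2.31 at low Pi (0.89, adjusted p = 0.00254). A further bromodomain gene, LOC_Os08g39980, fell (−0.68, adjusted p = 0.00453). Of 183 transposon loci, 10 rose and 11 fell (5.46% and 6.01%). The retrotransposon locus LOC_Os07g04930 stood at 17.3, 19.2 and 71.1 FPKM at high Pi and 0, 0 and 0.04 at low Pi (−4.88, adjusted p = 2.39e-05), with HP3 highest.

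Of 280 F-box genes, which choose targets for ubiquitin ligases, 36 rose and 17 fell (12.9% and 6.07%), and of 214 RING and U-box ligases, 28 rose and 19 fell (13.1% and 8.88%), beside 10.5% and 8.28% over all genes tested. Their medians were 0.06 and −0.04, so the RING median had the sign opposite to the balance of its calls. The F-box counts were 23 and 7 without HP2, 22 and 8 without LP2 and 26 and 7 without LP3, and the RING counts were 20 and 10 without HP2. OsFBA1 (LOC_Os02g10600) stood at 8.87, 7.52 and 8.35 FPKM at high Pi and 17.8, 21.0 and 21.1 at low Pi (1.18, adjusted p = 0.000172). OsFBX375 (LOC_Os10g06700) fell, with 8.32, 9.74 and 9.27 FPKM at high Pi and 4.90, 4.21 and 4.65 at low Pi (−0.86, adjusted p = 0.000264). Both responses differed from WT (0.26 and −0.09; differences 0.92, adjusted p = 0.0184 and −0.77, adjusted p = 0.0127). The RING genes LOC_Os02g36740 (6.59, 6.40 and 5.39 FPKM at high Pi and 16.1, 21.8 and 18.5 at low Pi; 1.47, adjusted p = 0.000132) and LOC_Os01g07390 (1.64, adjusted p = 0.000307) rose without overlap. Of 43 senescence and autophagy genes, 5 rose and 4 fell (11.6% and 9.30%), or 3 and 2 without HP2 or LP2. The protease oryzain gamma (LOC_Os09g27030) stood at 205, 227 and 348 FPKM at high Pi and 594, 624 and 535 at low Pi (1.20, adjusted p = 0.00152). ATG1 (LOC_Os10g39870), a kinase that starts autophagy, fell in the mutant from 3.70, 4.76 and 3.16 to 1.47, 0.59 and 1.47 FPKM (−1.18, adjusted p = 0.0045; difference from WT −1.83, adjusted p = 0.0117).

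Lists of genes that mark cell types were examined for the makeup of the tissue. The leaf mesophyll list (chlorophyll A-B binding and Rubisco small chain genes) was abundant in all libraries, with summed FPKM of 38557, 49408 and 35293 at high Pi and 40481, 29888 and 39012 at low Pi. The Pi levels overlapped, and of 20 tested genes 1 rose and 2 fell (5% and 10%), or 1 and 4 without WT-LP1. Seed and endosperm genes summed to 18 to 24.4 FPKM over 23 loci, of which 16 were listed at 0 in all mutant libraries. Of 3 tested, 1 rose (33.3%), the glutelin LOC_Os10g26060 (0.83, adjusted p = 0.00169). Flower and pollen genes summed to 384 to 477 FPKM at either Pi level. Of 30 tested genes 0 rose and 1 fell (0% and 3.33%). Without 1 library those counts ran from 0 and 0 (without HP2, HP3, LP1, LP2 and 3 of the WT libraries) to 2 and 0 (without HP1) or 0 and 2 (without WT-LP3). The lists for dividing cells are those of histone-domain genes and of replication and mitosis, whose sums are given with them. In whole leaf blades, fewer cells of a type and less RNA per cell cannot be told apart.

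Whether the mutant responded differently from WT was tested as the interaction, which subtracts the WT response from the mutant response. It was called for 641 of 17630 genes (3.64%), 263 positive (1.49%) and 378 negative (2.14%). In WT, 2345 genes were called (13.3%), 1487 higher (8.43%) and 858 lower (4.87%). Of the genes that rose in the mutant, 776 also rose in WT, which is 42.0% of the former and 52.2% of the latter. Of those that fell, 376 also fell in WT, 25.8% and 43.8% respectively. The directions were opposite for 60 and 66 genes. Across tested genes, which are not independent replicates, the folds of the genotypes had a Pearson correlation of 0.46. Of the 378 negative differences, 282 were genes that fell in the mutant, and of the 263 positive ones 180 were genes that rose in it. Since the difference contains the mutant response, such overlap follows in part from its definition and is no separate result. The count of differences was 259 without WT-HP2, 281 without LP2, 298 without HP2, 304 without WT-LP3, 340 without LP1, 370 without WT-HP3 and 420 without WT-LP2. It was 878 without WT-LP1. The WT count was 1147 without WT-LP3 and 1416 without WT-HP2. After median-of-ratios scaling the split of differences was 357 positive and 314 negative, and the split in WT was 1055 and 1189.

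**Figure D4:**
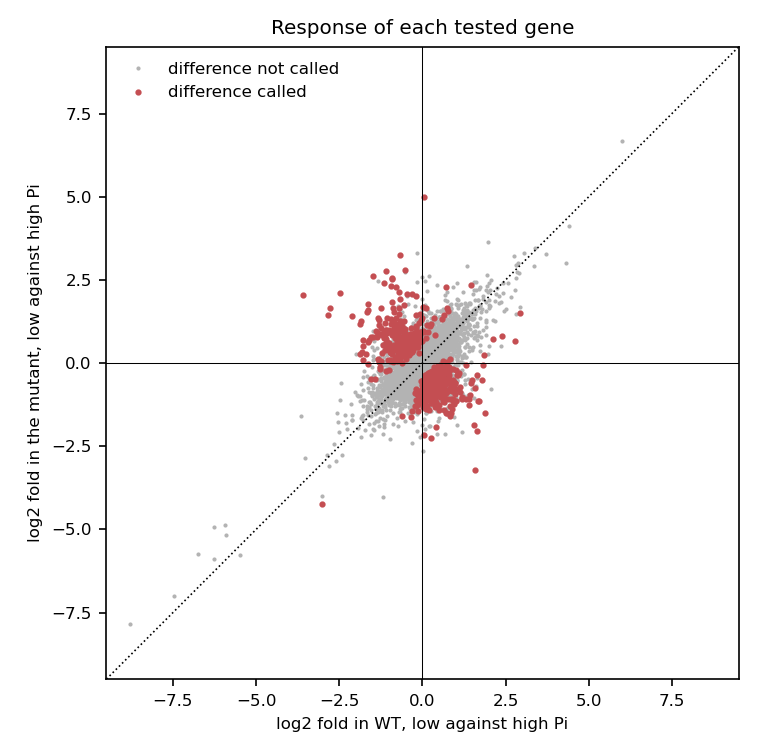
Log2 fold (low against high Pi) of each of 17630 tested genes in WT (horizontal) and in the mutant (vertical); red points are the 641 genes whose responses differed between genotypes and the dotted line marks equal response. LOC_Os07g34570 (6.01 and 6.68) lies near the line, the P450 gene LOC_Os02g47470 (1.58 and −3.20) lies far from it, and most red points lie in the upper left and lower right, off the line.

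The largest differences were in genes that moved in opposite directions, or in genes called in the mutant and not in WT. The expansin LOC_Os03g04020 stood at 43.9, 28.2 and 19.1 FPKM at high Pi and 72.6, 79.2 and 83.7 at low Pi in the mutant and at 73.8, 106 and 71.1 and 30.1, 18.3 and 10.8 in WT (mutant 1.41, adjusted p = 0.0144; WT −2.12, adjusted p = 0.00228; difference 3.53, SE 0.48, adjusted p = 0.00425). The trehalose-6-phosphate synthase LOC_Os02g54820 stood in WT at 35.2, 35.6 and 23.9 at high Pi and 16.4, 8.96 and 5.46 at low Pi (WT −1.63, adjusted p = 0.00574). In both genes WT and mutant moved apart, and the Pi levels did not overlap in either genotype. The thioredoxin LOC_Os07g48510 (difference 3.31, adjusted p = 0.0165) and the phosphatase LOC_Os03g49440 (3.89, adjusted p = 0.0215) rose in the mutant, with WT folds of −0.51 and −1.11 that did not pass. In the negative direction stood the P450 gene LOC_Os02g47470 (difference −4.78, SE 0.83, adjusted p = 0.0116; WT 1.58, adjusted p = 0.101), the kinase receptor LOC_Os04g34270 (−2.51, adjusted p = 0.00587; WT 0.25, adjusted p = 0.582) and OsCML10 (LOC_Os01g72100). OsCML10 stood at 45.8, 57.3 and 46.8 FPKM at high Pi and 22.9, 16.6 and 27.4 at low Pi in the mutant (−1.15, adjusted p = 0.00303) and at 47.6, 32.7 and 49.3 and 134, 116 and 164 in WT (1.66, adjusted p = 0.000489; difference −2.81, SE 0.29, adjusted p = 0.000917). The HD-Zip gene LOC_Os09g29460 fell in the mutant (−1.16, adjusted p = 0.0161) and rose in WT (1.69, adjusted p = 0.00298; difference −2.84, adjusted p = 0.00524). Its mutant call was lost without HP1 (0.0515), HP2 (0.0564), LP1 (0.0593) or LP2 (0.0626).

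Histone-domain genes that passed in the mutant mostly fell, and those that passed in WT rose, but these were largely different genes. Only LOC_Os07g36130 and LOC_Os09g38020 (mutant −1.07, adjusted p = 0.0327, and WT 1.40, adjusted p = 0.0129) passed in both genotypes. In WT 9 of 39 rose and 0 fell, beside 8.43% and 4.87% over all genes tested, with median 0.69 against 0.07. The interaction was called for 8 of 39, all 8 negative, beside 1.49% positive and 2.14% negative over all genes tested. The core histone gene LOC_Os07g36130 stood at 31.6, 44.0 and 59.4 FPKM at high Pi and 19.0, 17.1 and 16.9 at low Pi in the mutant (−1.26, adjusted p = 0.0167) and at 21.1, 17.6 and 26.6 and 36.9, 52.7 and 98.4 in WT (1.39, adjusted p = 0.0141; difference −2.64, adjusted p = 0.00984). The histone H3 gene LOC_Os06g04030 stood at 282, 276 and 305 and 349.6, 447 and 942 in WT, where it did not pass (0.88, adjusted p = 0.0634). Its difference between genotypes was −2.26 (adjusted p = 0.0123). WT-LP3 was the highest of its group in both genes and in most genes of the list, such as LOC_Os09g38020 (210, 262 and 634 FPKM in WT at low Pi). Summed over the 59 listed loci, histone-domain FPKM in WT ran from 2787 to 3216 at high Pi and from 3643 to 7496 at low Pi. Without WT-LP3 the WT median was 0.34, the WT count 6 and the interaction count 8, and without WT-LP1 the counts were 19 and 19. The WT count was 4 without WT-HP1 or WT-HP2. The interaction count was 3 without LP2 or WT-HP2, 4 without LP1, 4 without HP2 (1 of them positive), and 5 without WT-HP3. With no filter on low values the WT count was 6 and the interaction count 4, and with the replicate block the WT count was 14. The mutant call of LOC_Os07g36130 was lost without HP2 (0.0512), HP3 (0.053), LP2 (0.0535) or LP3 (0.0507), and its WT call was lost without WT-HP2 (0.0561).

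**Figure D5:**
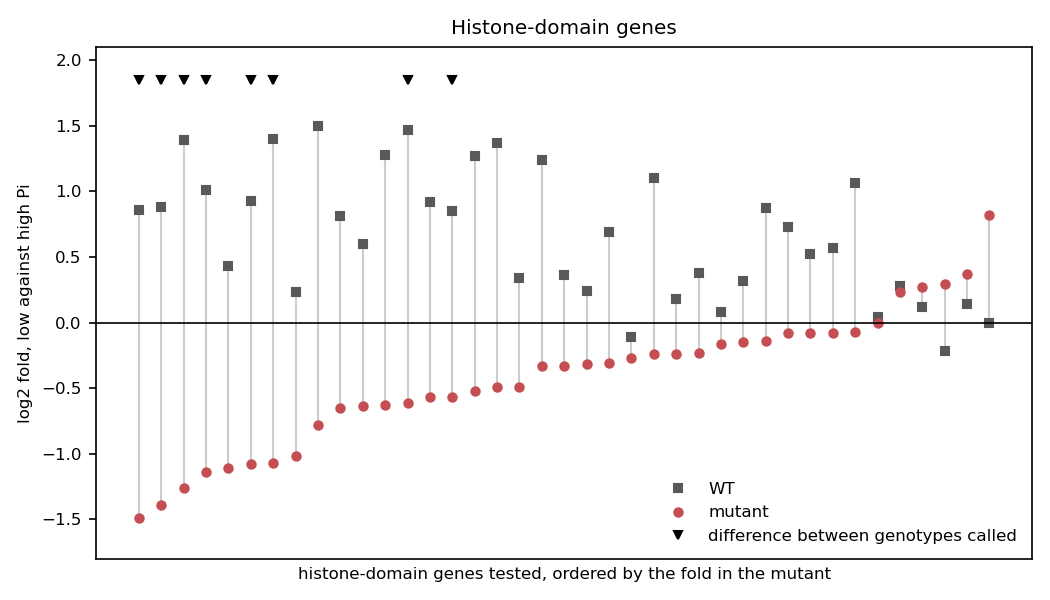
Log2 fold (low against high Pi) of the 39 tested histone-domain genes in the mutant (red) and in WT (grey), ordered by the fold in the mutant; triangles mark the 8 genes whose responses differed between genotypes. Most mutant folds lie below 0 and most WT folds above it, with medians of −0.33 and 0.69.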

How the data were processed

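RNA of leaf blades was sequenced for 12 libraries in 4 groups of 3. The deposited FPKM values were made by the authors, and per the submitters' processing notes StringTie 1.3.6, HISAT2 2.0.5 and CASAVA 2.17 were used. Neither genome build nor annotation was given in the sources used here. FPKM divides by transcript length and by mapped fragments, so a few abundant genes can shift all others. Gene descriptions are those of the files, and 0 identifiers matched the reference gene table, so no sequences are shown.

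From the deposited FPKM, log2(FPKM + 1) was taken for the 17630 of 32846 genes with at least 1 FPKM in at least 3 libraries. Filtering on any 3 libraries keeps genes seen in 1 group only. One limma 3.58.1 model (R 4.3.3, mean-variance trend) of the 4 group means over all 12 libraries gave the mutant response, the WT response and their difference, with two-sided p-values adjusted by Benjamini-Hochberg over all genes tested and a threshold of 0.05. On simulated data for these 17630 genes, the mutant comparison recovered 79 of 100 genes changed by 1 and 99 of 100 changed by 2 log2 units, with 14 false calls. The changed genes were drawn from the better expressed ones and were far fewer than the genes called in the data. The simulated noise was normal and independent, so recovery of weakly expressed genes and the false calls in the data are not covered. Tables were handled in Python 3.11.15 with pandas 2.3.3 and numpy 2.4.6, and drawn with matplotlib 3.10.9.

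Gene lists were matched by description, and their wording was corrected by meaning after the matches were seen. The comparison and the lists were chosen with earlier results of these data known. Genes named are the HMG1/2 locus, those among the 15 largest folds in each direction with an informative description, a mean of at least 1 FPKM over the 6 mutant libraries and no overlap between Pi levels, up to 4 members of each list with the smallest p, and those among the 5 largest differences in each direction. Alternatives were a pseudocount of 0.1, no filter, a filter at 5 FPKM, median-of-ratios and upper-quartile scaling, a replicate block, the 6 mutant libraries alone and each library left out. The authors' own fold and p columns were not used.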

Additional observations from a re-analysis of the deposited data

Results flagged for a closer look

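For 39 genes named in the report, the low-Pi response of the mutant differed from that of WT by limma's test of the difference (adjusted p under 0.05). Only genes detected in each genotype at each Pi level were counted, so OsFBX404, undetected in the mutant at high Pi, was not considered. The values that follow are that difference on the log2 scale, mutant response minus WT response, and no explanation was tested. Groups of 3 libraries are too small for a test of single libraries.

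Carbohydrate and cell wall genes with a positive difference were the trehalose-6-phosphate synthases LOC_Os02g54820 (3.41) and LOC_Os05g44210 (1.07) and the expansin LOC_Os03g04020 (3.53). Redox and defence genes with a positive difference were the thioredoxin LOC_Os07g48510 (3.31), the peroxidases LOC_Os04g59190 (1.57) and LOC_Os08g41090 (0.90), and the thaumatin LOC_Os09g36580 (1.29). The phosphatases LOC_Os03g49440 (3.89) and LOC_Os01g62760 (1.55), the auxin-repressed protein LOC_Os08g35190 (2.12), the B-box gene LOC_Os02g49880 (2.75), the sigma factor LOC_Os08g14450 (0.92), OsFBA1 (LOC_Os02g10600, 0.92) and the 12-oxophytodienoate reductase LOC_Os01g27230 (0.77) were positive as well.

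Among transcription factors, differences were negative for the GRAS gene LOC_Os01g71970 (−2.41), the homeobox genes LOC_Os09g29460 (−2.84) and LOC_Os01g21590 (−1.08), the AP2/ERF genes LOC_Os09g20350 (−0.95) and LOC_Os01g04020 (−1.13), the NAC gene LOC_Os11g08210 (−2.06), the auxin response factor LOC_Os02g41800 (−1.02), the ZIM gene LOC_Os08g33160 (−1.10) and the bHLH gene LOC_Os03g26210 (−1.23). The last of these fell in both genotypes, by a larger amount in the mutant (−4.25) than in WT (−3.02). The histone genes LOC_Os06g04030 (−2.26), LOC_Os07g36130 (−2.64) and LOC_Os12g25120 (−2.35) were negative, as was OsCML10 (LOC_Os01g72100, −2.81). Negative differences were also found for the P450 gene LOC_Os02g47470 (−4.78), the receptor kinases LOC_Os04g34270 (−2.51) and LOC_Os01g49529 (−0.97), UP-9A (LOC_Os02g03710, −2.21), ATG1 (LOC_Os10g39870, −1.83) and the ACC oxidase LOC_Os05g05670 (−1.47). The remaining negative differences included those of the DnaJ gene LOC_Os01g42190 (−1.42), the thiamin pyrophosphokinase LOC_Os01g70580 (−1.05) and LTPL83 (LOC_Os03g58940, −1.03). With them stood OsFBX375 (LOC_Os10g06700, −0.77), the receptor-like gene LOC_Os07g44860 (−0.73) and the glucosyltransferase LOC_Os05g45080 (−0.68).

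For 17 of the 39 genes the call of the difference did not pass under some alternative. Leaving out LP2 ended it for LOC_Os08g14450. Leaving out WT-HP2 ended it for LOC_Os07g48510. LOC_Os12g25120 lost it without HP2, LP2 or WT-HP2, LOC_Os02g10600 without HP2, LP2 or WT-LP3, and LOC_Os08g33160 without HP2, WT-HP2 or WT-LP3. LOC_Os03g49440 and LOC_Os02g03710 lost it without HP2, LP2 or WT-HP2, and further without WT-HP3 for the former and LP3 for the latter. LOC_Os05g45080 lost it without HP2, LP1, WT-HP2 or WT-LP3, and LOC_Os03g58940 without HP1, LP1, LP2, WT-HP2 or WT-LP3. LOC_Os07g44860, LOC_Os05g05670 and LOC_Os02g41800 lost it without HP1, HP2, LP1, LP2, WT-HP2 or WT-LP3, as well as WT-LP2 for the latter pair and WT-HP3 for LOC_Os02g41800. LOC_Os01g42190 lost it without HP2, LP3, WT-HP2, WT-HP3, WT-LP2 or WT-LP3, and its adjusted p was 0.407 with a pseudocount of 0.1. LOC_Os01g27230, LOC_Os08g41090 and LOC_Os09g36580, with adjusted p of 0.0482, 0.0306 and 0.0379, lost it without most single libraries, the highest value being 0.127. LOC_Os01g21590 lost it with a pseudocount of 0.1 (adjusted p = 0.12). With the replicate block the difference was also lost for LOC_Os05g45080 (0.057), LOC_Os02g41800 (0.0672), LOC_Os05g05670 (0.0764), LOC_Os08g41090 (0.0636) and LOC_Os01g27230 (0.0838). With no filter it was lost for LOC_Os03g49440 (0.0504), LOC_Os02g03710 (0.0545), LOC_Os03g58940 (0.0623), LOC_Os02g41800 (0.063), LOC_Os05g05670 (0.0677), LOC_Os08g41090 (0.0545), LOC_Os01g27230 (0.0785), LOC_Os09g36580 (0.0743) and LOC_Os01g42190 (0.0632). The last was also lost with a filter at 5 FPKM (0.0518).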

How the results depend on the processing

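Of 3307 genes called in the mutant, the count stayed within 1.5 times under pseudocount, filter, scaling and block alternatives, and it ran from 1984 to 3321 when 1 library was left out. Genes with an absolute log2 fold of at least 1 numbered 652, or 1061 with a pseudocount of 0.1, since the smaller offset enlarges folds of weakly expressed genes, and 569 to 731 with 1 library left out. Differences between genotypes numbered 641, but 366 with no filter, where more genes were tested, and 259 to 878 with 1 library left out. The WT count of 2345 ran from 1147 to 2622. The split of differences was 263 positive and 378 negative as deposited, 357 and 314 after median-of-ratios scaling and 335 and 322 after upper-quartile scaling, and the WT split was 1055 and 1189 or 1121 and 1112. The replicate block gave 2633 calls in the mutant and 391 differences. Same-numbered mutant libraries at high and low Pi had correlated deviations of −0.142, −0.14 and −0.348, so the replicate numbers show no pairing.

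Of 177 named genes called in the mutant, 165 kept the call under every alternative that tested them, and no named gene reversed its direction in the mutant. Since named genes were mostly chosen for a large fold or a small p, this follows largely from the choice. It does not describe the other called genes. FPKM without counts gives no depth per gene, and values under 1 FPKM are the least certain.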
